A study of Rattus norvegicus with 36 samples.

Results

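The norepinephrine response of the cultured rat pineal gland was measured in 6 of the 36 libraries of the study, 3 from glands treated with norepinephrine (NE) and 3 from glands left Untreated, taken by their labels. Both groups were pineal glands of female Sprague Dawley rats, 2 to 3 months old, held for 48 hours in organ culture and for another 6 hours with 1 µM NE or without any agent. Each library came from a pool of glands collected 3 to a tube, and p-values measure the spread between such pools, not between animals. Values were set beside those of glands treated for the same 6 hours with 500 µM dibutyryl cyclic AMP (DBcAMP), a cyclic AMP analog that enters cells. They were also set beside pineal glands taken at mid-day or midnight from 40-day-old male and female rats. Those in vivo groups were Control rats without surgery, Sham-operated rats, rats whose superior cervical ganglia were separated from their central input (DCN) and rats whose ganglia were removed (SCGX). Surgery was on postnatal day 5, and each group and time had 3 libraries.

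The pineal gland makes melatonin at night. Sympathetic nerves from the superior cervical ganglia release norepinephrine in the dark, which acts on adrenergic receptors of the pinealocyte, the main cell of the gland, and raises cyclic AMP. The rise in cyclic AMP switches on many genes, in part through the transcription factor CREB, a substrate of protein kinase A. A cultured gland has lost its nerves' firing, so added NE stands in for the night signal. Intact glands also hold astrocytes, phagocytes, vessels and nerve endings, and the fall of a transcript in whole-gland RNA cannot be told apart from a loss of the cells that carry it.

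The 6 libraries held between 13029422 and 18524435 read-pairs counted on genes, and between 18263 and 18988 genes had at least 1 read-pair in a library. No pair of replicate libraries was identical, and their counts differed by more than sampling noise, with a chi-square per degree of freedom between 4.99 and 6.30. Over the 500 genes of highest variance, the first principal component took 79.8% of the variance and separated the groups, with Untreated libraries between -22.7 and -19.9 and NE libraries between 19.9 and 22.3. The files list genes by Ensembl identifier and do not pair them with names. The tissue label could therefore not be checked with marker genes, and the response is described by the size of change, the level of the genes and their behaviour in the other groups.

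NE changed the abundance of many transcripts, and the larger changes were mostly increases. Of 15206 genes tested, 1726 (11.4%) differed at an adjusted p-value under 0.001, 1018 higher with NE (6.69%) and 708 lower (4.66%), by the quasi-likelihood test of edgeR and p-values adjusted after Benjamini and Hochberg. The common coefficient of variation between pools was 8.15%. The median fold change of the increased genes was 1.82, and 432 of them (42.4%) changed more than 2-fold. Decreased genes had a median fold change of 1.56, and 119 of them (16.8%) changed more than 2-fold. With library size as the only scaling, 785 genes were higher and 1068 lower, so that the balance of increases and decreases is relative to the scaling used. The decreased genes were the less stable list, with between 354 (without NE replicate 3) and 528 of them when 1 library was left out, 370 without NE replicate 2, 399 without NE replicate 1, 437 without Untreated replicate 3 and 463 without Untreated replicate 2, against between 804 and 987 increases. Library size as the only scaling moved the median log2 fold change of all genes from -0.03 to -0.12.

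**Figure D1:**
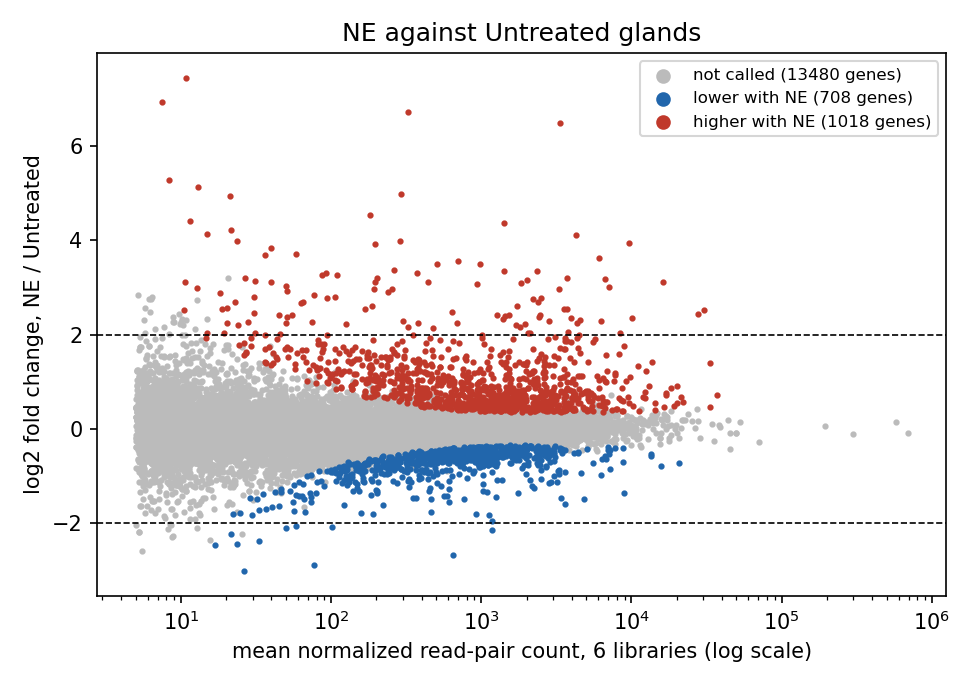
Log2 fold change of NE over Untreated against the mean normalized read-pair count of each of the 15206 tested genes, with both group sizes of 3 libraries. Red and blue points are the 1018 higher and 708 lower genes at an adjusted p-value under 0.001, dashed lines mark 4-fold changes, and the points beyond these lines are mostly above 0.

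A strong change, here a fold change greater than 4 at the same adjusted p-value, was found for 124 genes (0.815%). These were 113 genes higher with NE (0.743%) and 11 lower (0.0723%). Among the strong increases, 66 were under 8-fold, 33 were between 8- and 16-fold, 8 were between 16- and 32-fold and 6 were over 32-fold. Of the strong decreases, 10 were under 8-fold and 1 was over 8-fold. Between the small changes the directions were close in number, with 268 increases and 285 decreases of up to 1.5-fold. The fold changes nearest to the limit were 4.04, 4.06 and 4.07 inside and 3.965, 3.965 and 3.959 outside it. Another 35 genes with a change between 4- and 8-fold, and 1 gene between 8- and 16-fold, did not reach the adjusted p-value.

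**Figure D2:**
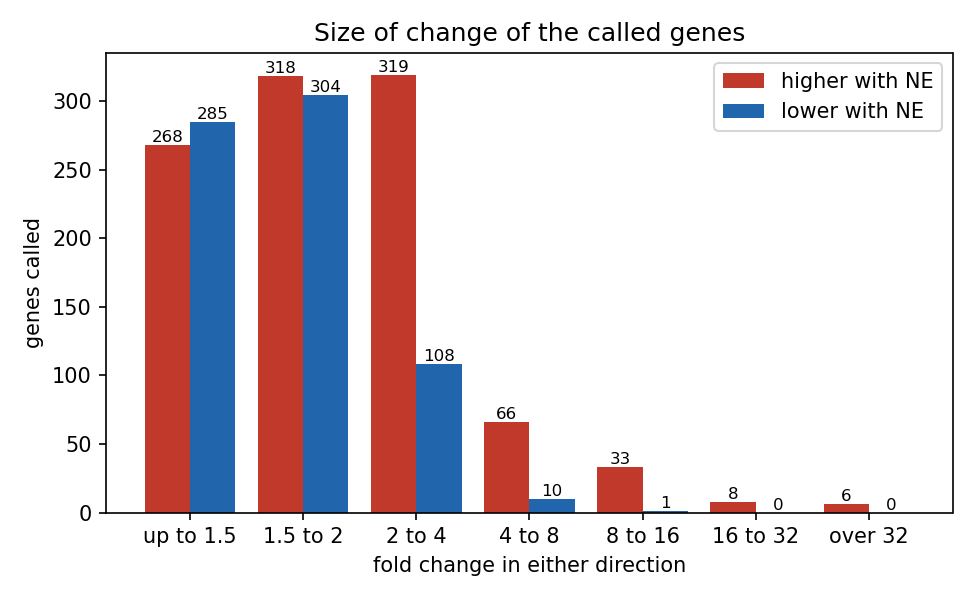
Number of genes called at an adjusted p-value under 0.001 (vertical axis) in each range of fold change (horizontal axis), red for higher and blue for lower with NE. Counts of both directions are similar up to 2-fold, and from 2- to 4-fold there are 319 increases against 108 decreases.

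The largest increase, among genes whose normalized count averaged 50 or more, was that of ENSRNOG00000011598. The named genes were chosen by their change in these same libraries, so that a gap between the groups is part of their choice. The Untreated libraries held 5, 9 and 6 read-pairs of this gene and the NE libraries 496, 639 and 633, so that the groups were far apart in every library. Its normalized count was 6.16 ± 2.29 (SD, n = 3) in Untreated and 648 ± 118 in NE glands, a log2 fold change of 6.71 (standard error 0.22, edgeR adjusted p = 3.04e-12).

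The second was ENSRNOG00000011182, with 81, 52 and 110 read-pairs in Untreated and 6479, 5774 and 5910 in NE libraries. Every NE library was again far above every Untreated library, and the NE libraries lay close together. The normalized count rose from 72.6 ± 19.2 to 6620 ± 169 (SD, n = 3), a log2 fold change of 6.49 (standard error 0.13, edgeR adjusted p = 1.22e-14).

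The largest decrease by the same rule was that of ENSRNOG00000042246, from 137, 121 and 190 read-pairs in Untreated to 17, 18 and 15 in NE libraries. No NE library came near the lowest Untreated library. Its log2 fold change was -2.88 (standard error 0.21, edgeR adjusted p = 2.87e-08), with normalized counts of 135 ± 16.1 and 18.3 ± 2.36 (SD, n = 3). ENSRNOG00000005159, a more abundant transcript, fell from 1070, 1343 and 1293 read-pairs to 139, 146 and 196. Its normalized count was 1130 ± 160 in Untreated and 176 ± 34.8 in NE glands (SD, n = 3), a log2 fold change of -2.69 (standard error 0.13, edgeR adjusted p = 2.34e-10).

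**Figure D3:**
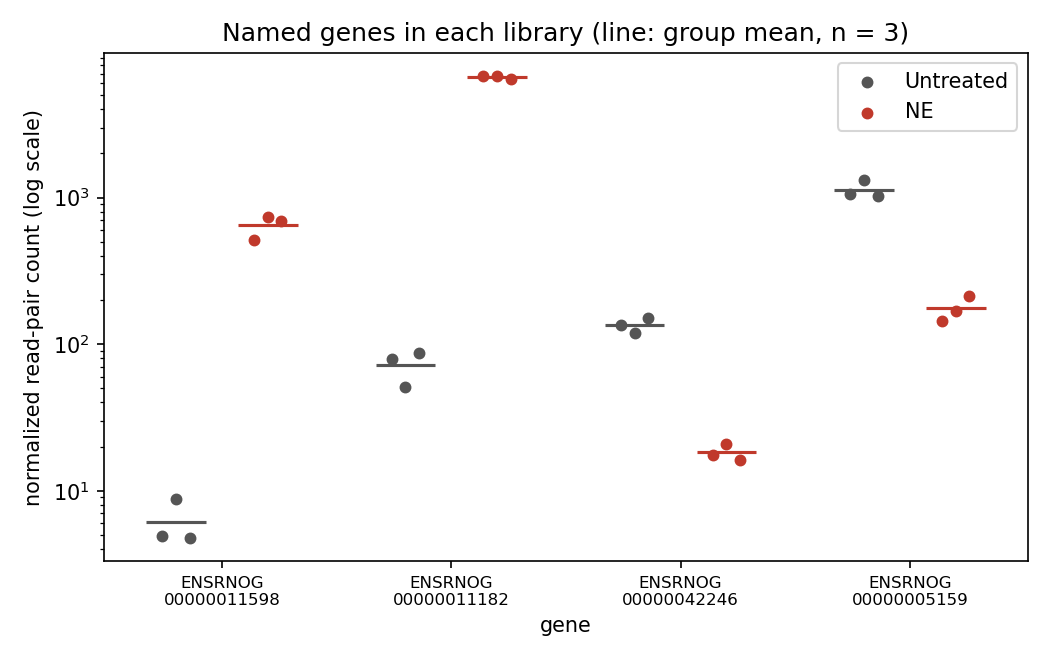
Normalized read-pair count on a log scale of 4 genes (horizontal axis) in each Untreated (grey) and NE (red) library, with a line at the mean of 3 libraries. The groups do not overlap in these 4 genes, which were chosen for the largest changes in the same libraries. The share of all tested genes without overlap was not counted.

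The levels of these genes in RPKM, a read-pair count per length and depth, differed between the genes and between the experiments. ENSRNOG00000011182 was at 3.21 ± 0.843 RPKM (SD, n = 3) in Untreated and 274 ± 7.23 in NE glands. In vivo it was at 6.83 ± 1.44 in Control day and 1270 ± 190 in Control night glands, above the NE level. The test of the difference between the NE response and the Control night/day change gave a log2 value of -1.18 (standard error 0.25, adjusted p = 0.00424), which missed the threshold. In operated glands this gene was not at the Untreated level, with 376 ± 85.8 RPKM in SCGX day and 255 ± 30.7 in SCGX night glands, and 97.7 ± 20.0 in DCN day and 178 ± 74.0 in DCN night glands.

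ENSRNOG00000011598 was low in operated glands. It reached 21.2 ± 4.30 RPKM (SD, n = 3) with NE and 45.1 ± 5.44 in Control night glands, and was at 0.215 ± 0.0793 in Untreated and 0.397 ± 0.176 in Control day glands. In DCN glands its level was 0.0644 ± 0.0650 RPKM by day and 0.0675 ± 0.00231 at night, and in SCGX glands 0.766 ± 0.646 by day, with libraries between 0.215 and 1.48, and 0.140 ± 0.0597 at night. The difference between its NE response and its Control night/day change was -0.26 on the log2 scale (standard error 0.51, adjusted p = 0.775).

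Both decreased genes were lower at night than by day in Control glands. ENSRNOG00000042246 was at 3.11 ± 0.351 RPKM in Untreated and 0.396 ± 0.0558 in NE glands, and at 13.3 ± 3.97 in Control day and 0.838 ± 0.396 in Control night glands (SD, n = 3). Its level in DCN and SCGX glands was between 11.2 and 33.6 RPKM at both times. ENSRNOG00000005159 was at 19.3 ± 2.72 RPKM in Untreated, 2.82 ± 0.596 in NE, 17.0 ± 5.02 in Control day and 0.818 ± 0.704 in Control night glands. In Sham glands the night/day log2 fold changes of ENSRNOG00000042246 and ENSRNOG00000005159 were -3.45 (standard error 0.68, adjusted p = 0.0136) and -1.92 (standard error 0.81, adjusted p = 0.149), neither past the threshold. ENSRNOG00000005159 was between 12.2 and 31.9 RPKM in DCN and SCGX glands at both times. The tests of the differences between the NE and the Control changes gave log2 values of 0.96 (standard error 0.45, adjusted p = 0.158) and 1.57 (standard error 0.49, adjusted p = 0.0391), neither under 0.001.

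Genes with a strong increase were not restricted to rare transcripts. By level per length, 10 of the 113 had a mean of less than 0.1 RPKM in Untreated glands, 75 had more than 1 RPKM and 39 more than 10 RPKM. Of all 15206 tested genes, 61 were below 0.1 RPKM there, 13255 above 1 RPKM and 7835 above 10 RPKM. A low Untreated level was thus more common among the strong increases, which is partly set by their choice on the same libraries. A gene almost absent from Untreated glands passes the count filter only through its NE libraries. With NE, 107 of the 113 were over 1 RPKM and 70 over 10 RPKM. The median level of the 113 over the 6 libraries, NE libraries included, was 11.8 RPKM, against 10.3 for all tested genes. That of the strong decreases was 2.66 RPKM. Of the 113 genes, 2 had no read-pair in the Untreated libraries, for which the floor of 3 read-pairs over the group gives increases of at least 16.4-fold and at least 23.7-fold. Another 3 had 1 to 3 read-pairs there. The median log2 fold change of the 113 genes was 2.79, with or without these bounds.

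Called genes were more frequent among abundant and among long transcripts, where more read-pairs are counted. When tested genes were divided into 4 equal bins by mean count, those with the lowest counts, between 5.01 and 48.3, had 1.32% higher and 0.473% lower with NE, and in the highest bin the shares were 14.6% and 7.15%. By transcript length the share of higher genes went from 4.89% in the shortest to 9.13% in the longest bin, and that of lower genes from 1.66% to 7.65%. The strong increases did not follow length in this way, with 26, 23, 40 and 24 genes from the shortest to the longest bin.

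As a share of all read-pairs on genes, the 113 strongly increased genes took between 0.396% and 0.428% in Untreated libraries and between 2.39% and 2.58% in NE libraries. A few genes carried much of this gain. The largest contributor accounted for 13.2% of it, and 8 genes accounted for 50% of it. All 1018 increased genes together went from between 9.59% and 9.96% to between 17.2% and 18.2%, and the 708 decreased genes from between 6.40% and 6.61% to between 3.87% and 3.96%. These shares describe genes chosen on the same libraries and were not tested.

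In the libraries that played no part in the choice, the 113 genes took between 2.40% and 2.58% with DBcAMP and between 0.405% and 0.430% in Control day glands. Control night libraries were at 2.72%, 3.13% and 3.34%, and Sham night libraries between 2.94% and 3.71%. The lowest of these night libraries was above the highest NE library. At night the share was between 0.594% and 0.696% in DCN and between 0.680% and 0.774% in SCGX glands, below every NE library. SCGX day libraries were at 0.791%, 0.925% and 1.04%, above every other day library.

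**Figure D4:**
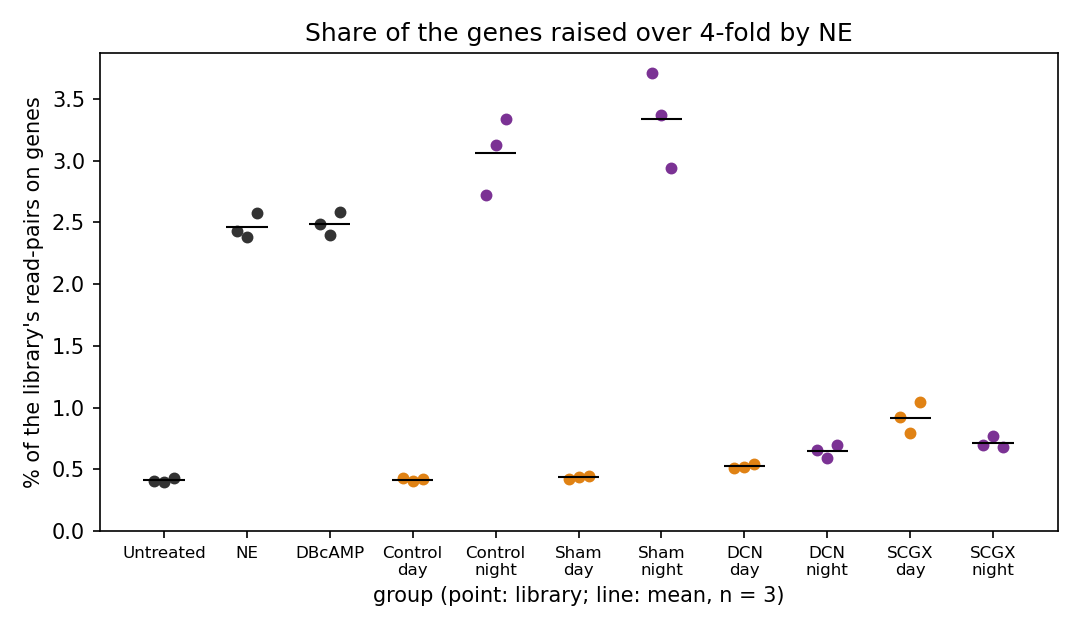
Percent of read-pairs on genes that fall on the 113 genes increased over 4-fold by NE, in each library (points) of 11 groups, with a line at the mean of 3 libraries. Untreated and day libraries of Control and Sham lie below 0.5%, NE and DBcAMP libraries between 2.39% and 2.58%, and Control and Sham night libraries above 2.7%.

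The effects of NE were compared with those of DBcAMP directly, in the 6 libraries of these groups, to ask whether the transmitter and the second messenger analog give the same transcripts. The threshold of 0.001 was passed by 154 of 15026 genes (1.02%), 20 higher with NE (0.133%) and 134 higher with DBcAMP (0.892%). All 20 genes that differed more than 4-fold were higher with DBcAMP. Among the 1018 genes increased by NE, 8 were higher and 37 lower than with DBcAMP, and their median log2 difference between the agents was -0.08, against 0.01 for all tested genes. For the 113 strong increases the median difference was 0.10, with quartiles at -0.36 and 0.43, and 5 genes were higher and 3 lower with NE. Among the 708 decreased genes, 1 was higher and 3 were lower with NE than with DBcAMP. The NE libraries take part in both comparisons, which can tie the values together.

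The named genes had small differences between the agents. ENSRNOG00000011182 was at 194 ± 20.3 RPKM with DBcAMP (SD, n = 3), 0.45 on the log2 scale below NE (standard error 0.08, edgeR adjusted p = 0.00411). ENSRNOG00000011598 was at 17.5 ± 4.17 RPKM with DBcAMP, and its log2 difference of 0.23 had a standard error of 0.16 (adjusted p = 0.474). The log2 differences of ENSRNOG00000042246 and ENSRNOG00000005159 were -0.39 (standard error 0.29, adjusted p = 0.498) and -0.30 (standard error 0.22, adjusted p = 0.509). The count of 154 genes varied with the libraries used. It was 79, 148 and 147 without DBcAMP replicates 1, 2 and 3, and 56, 50 and 80 without NE replicates 1, 2 and 3. With DESeq2's Wald test it was 423. The 20 genes higher with NE were 5, 13 and 16 without DBcAMP replicates 1, 2 and 3. They were 3, 2 and 10 without NE replicates 1, 2 and 3, and 76 with DESeq2.

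To ask how the response in culture relates to the change from day to night in the gland, the NE effect was set beside that of Control rats, in which no library is shared. In the Control comparison 6.37% of the genes tested were higher and 3.02% lower at night. Among 14739 genes tested in both, 1008 were increased by NE and 981 were higher at night, 6.66% of all. Both lists held 544 genes, which is 54.0% of the NE list and 55.5% of the night list. For decreases, 126 genes were in both lists, 17.8% of the 708 genes decreased by NE and 27.3% of the 462 genes lower at night, which were 3.13% of all genes. Opposite calls were few, with 6 genes higher with NE and lower at night and 9 the other way. Over all 14739 genes, which are not independent replicates, the log2 fold changes were correlated with a Pearson r of 0.538 and a Spearman rho of 0.387. The glands of the 2 experiments differ in culture, age, sex and sequencing pool, whose parts in any difference cannot be told apart.

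The share of NE-increased genes that were also called higher at night was larger above than below a 2-fold increase. It was 36.2% for increases of up to 1.5-fold, 45.4% from 1.5- to 2-fold, 71.3% from 2- to 4-fold, 66.7% from 4- to 8-fold and 81.4% over 8-fold. The median Control night/day log2 fold change in the same order was 0.49, 0.69, 1.5, 2.46 and 3.90. Of the decreases, 10.9% of those of up to 1.5-fold were called lower at night, 17.4% from 1.5- to 2-fold and 33.3% from 2- to 4-fold. From 4- to 8-fold it was 6 of only 10 genes (60%), and the 1 decrease over 8-fold was not called. The replicate error is smaller in culture, with a common coefficient of variation of 8.15% against 14.4% in Control, so that equal changes are not called equally often.

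Across the in vivo groups, the genes that responded to NE had night/day medians away from 0 in Control and Sham glands and closer to 0 in operated glands. The strong increases had a median night/day log2 fold change of 2.88 in Control, where 106 of the 113 genes were tested, and 2.85 in Sham, where 108 were tested. Of these, 77 (72.6%) were called higher at night in Control and 57 (52.8%) in Sham, against 6.66% and 1.78% of all tested genes. The corresponding medians were 0.10 in DCN and -0.25 in SCGX, where 98 and 96 genes were tested. In DCN 60.2% of these values were positive and in SCGX 28.1%, against 49.6% and 49.7% of all tested genes. The SCGX quartiles were -0.71 and 0.05, a lean to lower values at night, and none of the strong increases was called in either group. Medians over all tested genes were between -0.05 and 0.00 in the 4 groups. At night the same genes were lower in operated than in Sham glands, with median log2 differences of -2.70 in DCN and -2.38 in SCGX. In these comparisons 39 of 108 (36.1%) and 48 of 108 (44.4%) were called lower, against 0.809% and 1.39% of all tested genes. The Sham night libraries enter both comparisons and also the Sham night/day change, so that these values are not independent.

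Decreased genes had the opposite sign. The 708 genes had a median night/day log2 fold change of -0.37 in Control and -0.54 in Sham, and of 0.01 in DCN and -0.01 in SCGX. At night they were higher in operated than in Sham glands, with medians of 0.48 in DCN and 0.47 in SCGX, and 651 of 707 had a positive value in each. The tests of single genes called 11 of them higher in DCN (1.56%) and 29 in SCGX (4.10%), against 0.135% and 0.453% of all tested genes. Both comparisons use the Sham night libraries, which also enter the Sham night/day change.

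**Figure D5:**
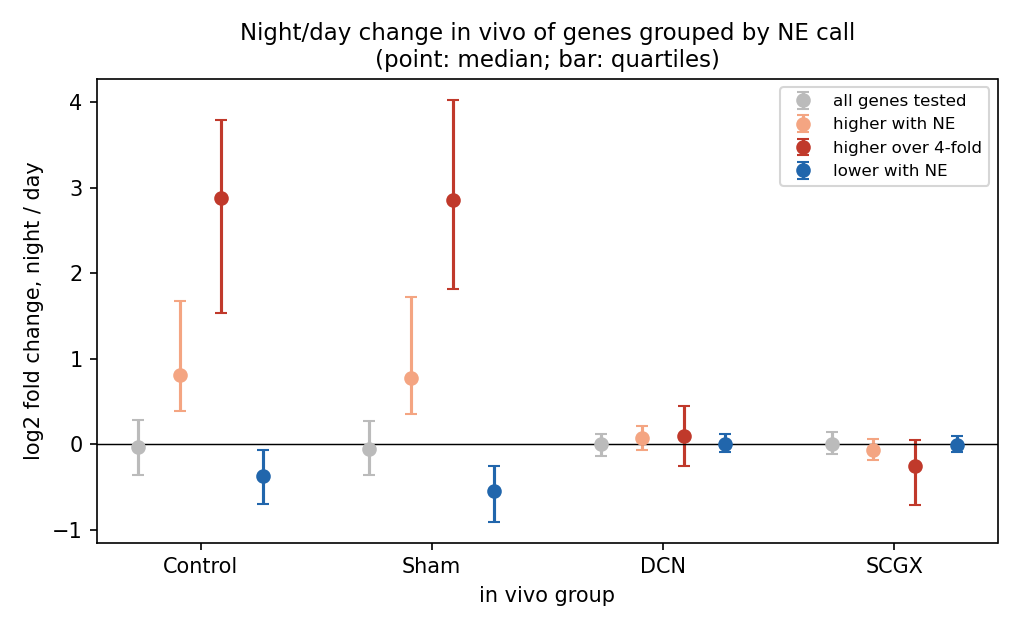
Night/day log2 fold change in the 4 in vivo groups of all genes tested with NE and of genes grouped by their NE call, as medians (points) and quartiles (bars) over genes. In Control and Sham the strongly increased genes have medians of 2.88 and 2.85 and the decreased genes medians below 0, and in DCN and SCGX all medians lie between -0.25 and 0.10.

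The difference between the NE response and the Control night/day change was tested gene by gene in 1 model of 12 libraries. The threshold of 0.001 was passed by 563 of 15583 genes (3.61%), 248 with the NE response above the night/day change (1.59%) and 315 with it below (2.02%). Of the genes increased by NE, 101 (9.92%) rose less with NE than from day to night, with a median log2 fold change of 1.15 with NE and 2.87 in Control. Another 83 (8.15%) rose more with NE, with medians of 1.10 and -0.26, and 70 of these were not called between night and day in Control. Among the genes decreased by NE, 54 (7.63%) had a NE response below the night/day change, with medians of -0.72 and 0.37, and 11 (1.55%) had it above, with medians of -0.91 and -2.23. Of all genes tested with NE, the response was below for 2.09% and above for 1.64%. The libraries behind the NE and Control calls also enter this test, so that these splits and medians are partly set by the choice of genes.

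Of the 563 genes, 153 with the NE response above and 160 with it below were not called with NE. Genes called with NE were still more frequent among the 563 than the 11.4% of all tested genes. The NE libraries enter both tests. The NE response was above the night/day change for 119 genes that fell at night in Control and were not called with NE, with medians of -1.36 in Control and -0.02 with NE. It was below for 138 genes that rose at night and were not called with NE, with medians of 1.23 and -0.02. Both sets were chosen by calls from libraries that enter the test, which partly sets these medians. The count of 563 genes became 374 without Untreated replicate 3 and 1245 with DESeq2's Wald test.

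The gland's own transcripts were then considered, as the genes with a mean normalized count over 30 that were more than 8-fold above or below a pool of mixed tissues in 1 day and 1 night library of pineal glands that were not cultured, with no test on those unreplicated libraries. Of 197 genes that stood above mixed tissue only at night, 192 were tested in culture, and 132 (68.8%) were increased by NE and 1 was decreased (0.521%), against 6.69% and 4.66% of all tested genes. Their median log2 fold change was 1.14 with NE and 2.41 from day to night in Control. These genes passed the limit at night and not by day, so that a higher level at night is part of their choice. The share increased by NE therefore overlaps with the comparison with Control above. Of 163 genes above mixed tissue at both times, 156 were tested, with 31 increased (19.9%) and 22 decreased (14.1%), and their median was -0.05. Of 58 genes above it only by day, 48 were tested, with 2 increased and 12 decreased (25%), and a median of -0.33. The list of 1930 genes enriched in mixed tissue had 714 tested, of which 11 were increased (1.54%) and 4 decreased (0.560%), with a median of 0.00. Calls depend on level, with 1.32% higher and 0.473% lower in the lowest count bin and 14.6% and 7.15% in the highest. These lists were not matched by level with all tested genes, which limits the comparison of shares.

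The shares of read-pairs on the same lists were also taken. Some genes of these lists were themselves changed by NE, so that the shares do not measure cell content alone. The genes above mixed tissue at both times took between 4.22% and 4.62% of read-pairs in Untreated, between 4.19% and 4.35% in NE and between 6.29% and 6.36% in Control day libraries. Those enriched in mixed tissue took between 0.463% and 0.494% in Untreated, between 0.421% and 0.522% in NE and between 0.276% and 0.300% in Control day libraries. Their share was 15.4% in the mixed tissue library, which was itself used to choose the list. Untreated and NE libraries overlapped in both shares, and the libraries of both lay apart from those of Control day glands. Both lists were chosen in pineal glands that were not cultured, so that the gap to Control day glands can be partly set by the choice.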

How the data were processed

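Per the labels and the study's methods, the authors sequenced strand-specific, ribo-depleted RNA, aligned it with STAR (version 2.3.1y in the submitters' processing notes) to rn4 with the Ensembl annotation, and counted read-pairs per gene with QoRTs under the rule of HTSeq. The deposited counts are whole read-pairs of 29516 genes without normalization. The RPKM values deposited by the authors are these counts per length and library total, and were used for levels and lengths.

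Counts were tested with edgeR 4.0.16 in R 4.3.3 (quasi-likelihood test, TMM scaling, Benjamini-Hochberg adjustment), each comparison on its own libraries. The test took genes whose normalized count averaged 5 or more. Normalized counts are counts divided by relative TMM library sizes, and the standard error is the log2 fold change over the root of the F statistic. With 3 libraries a group, an exact permutation test of 1 value cannot go below 0.1. Read-pairs that fall on several genes are not counted, which can lower the values of near-identical copies. Alternatives included DESeq2 1.42.0. The test was run on simulated counts with known changes. For NE against Untreated it found 74.7% of 2-fold and 92% of 4-fold changes, but 8.7% of 2-fold changes at the lowest counts. For the difference from Control it found 49% and 77%, and 0% of 2-fold changes at the lowest counts. A gene that is not called, above all at low counts, is thus not shown to be unchanged.

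Members, lists and filter were chosen with earlier results of these data known. No identifier matched the gene table, so the planned gene and marker lists and promoter motifs were not analysed here. The naming rule, meant for genes with a symbol, was cut to the 2 identifiers with the largest change each way at a mean count of at least 50, a step taken after the files were seen. The tissue lists, read-pair shares and bins were added then too.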

Additional observations from a re-analysis of the deposited data

Results flagged for a closer look

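The difference between the NE response in culture and the night/day change of Control glands was past an adjusted p-value of 0.001 for 563 of 15583 genes, by a test of the difference itself.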

How the results depend on the processing

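The number of genes changed by NE was 2699 without a filter on low counts, a set that held all 1726, and 1039 with Benjamini-Yekutieli adjustment, which is stricter by construction. It was between 1208 and 1394 when 1 library was left out, and the share of increases then went from 59.0% to between 62.1% and 72.7%. With Benjamini-Yekutieli adjustment 722 genes were higher and 317 lower. Those fits gave between 116 and 135 strong genes, a filter of 10 read-pairs in each library gave 85, and there were 91 with DESeq2 and its prior. Of the 113 strong increases, 106 passed the adjusted p-value without any 1 library, as did 9 of the 11 decreases. Between NE and DBcAMP the count was 423 with DESeq2's Wald test, 575 without a filter, 58 with Benjamini-Yekutieli adjustment and between 50 and 148 without 1 library. For the difference from the Control night/day change it was 1245 with DESeq2, 969 without a filter, 230 with Benjamini-Yekutieli adjustment and between 374 and 762 without 1 library. Apart from that adjustment and the smaller number of libraries, the cause was not tested. The share of NE-increased genes called higher at night, chosen after seeing the data, was 54.0% and went from 42.4% with the replicate block to 63.2% with DESeq2. The log2 fold changes of the 4 named genes kept their direction and call under every alternative that tested them, and the largest adjusted p-value was 1.06e-06, for ENSRNOG00000042246.

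Replicate numbers did not pair the cultures. Deviations of same-numbered libraries had correlations of -0.069, 0.058 and 0.016 between Untreated and NE and of -0.075, -0.083 and -0.077 between NE and DBcAMP, and not every library correlated best with its own number. With the replicate block, 1743 genes were changed by NE, 127 of them strong, and 79 genes differed between NE and DBcAMP, 4 of them higher with NE. No blocked fit was made for the difference from Control, whose libraries come from other animals. Of the tested genes with mean counts of up to 48.3, 1.32% were called higher and 0.473% lower, so that calls rest mostly on abundant transcripts.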
